A study of Mus musculus with 7 samples.

Results

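The genes described here are 9 apolipoprotein genes, Apoa1, Apoa2, Apoa4, Apoa5, Apob, Apoc1, Apoc3, Apoe and Apoh, and Mttp, which encodes the large subunit of microsomal triglyceride transfer protein. They were chosen by name, with their difference between the groups known, and are 10 of the 18019 genes tested, measured by 13 probes. All 10 were lower on the cΔex3-labelled arrays than on the control-labelled arrays. Apoa1, Apob and Apoh had the largest log2 differences, −10.56, −9.86 and −9.60, while Apoe and Apoc1 stayed among the brightest genes in both groups and differed by 3.94-fold and 9.72-fold.

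The series measured total RNA of cells sorted from mouse dorsal skin at postnatal day 15 on single-colour Agilent mouse expression arrays, 1 array per sample. The cΔex3 group, in which β-catenin is active, held 4 arrays made from 6 mice, with 2 mice pooled on each of arrays 2 and 3. The control group held 3 arrays made from 4 mice, with 2 mice pooled on array 3. Cells of both groups were sorted as dermal sheath, the connective tissue layer around the hair follicle, by YFP fluorescence and by the lack of CD34, of alkaline phosphatase and of integrin α8. The Cre driver, the other alleles of either group, the sex and the strain are not given in the sources used here. The labels number the arrays as biological replicates.

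Several facts of the arrays bear on every value that follows. The 75th percentile of signal was 1348 to 2160 on the cΔex3-labelled arrays and 756 to 907 on the control-labelled arrays, and all levels below are log2 signals relative to that percentile. The share of spots well above background was 69.0 to 82.6% on the cΔex3-labelled arrays and 69.3 to 71.4% on the control-labelled arrays, and 0 spots were saturated. The control-labelled arrays went against their label. All 13 hepatocyte markers examined, among them Alb and Ttr, were called lower on the cΔex3-labelled arrays, and their summed signal was 5617 to 49735 there and 3280880 to 3645870 on the control-labelled arrays. Dermal sheath markers, such as Acta2 and Myh11, had a median at the 75.1 to 93.4 percentile of all genes on the cΔex3-labelled arrays and at the 47.6 to 59.6 percentile on the control-labelled arrays. All 8 adipocyte markers were called higher on the cΔex3-labelled arrays, with a summed signal of 1711270 to 2472070 there and 8049 to 75056 on the control-labelled arrays. The adipocyte median lay at the 98.9 to 99.8 percentile on the cΔex3-labelled arrays, above the dermal sheath median there. Summed dermal sheath signal on these arrays was 160057 to 395201. The cΔex3-labelled arrays thus also carried strong signal of a cell type other than that of their label. The part of these other cell types in the results below was not tested, and since the samples are bulk RNA, fewer cells of a type and less RNA per cell cannot be told apart. Groups are therefore named by their labels.

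Apolipoproteins are the protein coats of the particles that carry fat and cholesterol in blood. Hepatocytes and enterocytes build the triglyceride-rich particles: Mttp loads lipid onto the nascent Apob chain in the endoplasmic reticulum, and the particle leaves the cell through the secretory pathway. The smaller exchangeable apolipoproteins, of the A, C and E groups, move between particles and set their fate, by activating or inhibiting lipases and by binding receptors. Apoe differs from most of them in being made by many cells, macrophages, adipocytes and skin cells among them.

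Promoters were available in RefSeq (GRCm38.p6) for 8 of the 10 genes, as 250 bases before to 50 bases after the listed transcription start. The promoters of Apob, Apoa4, Apoa1 and Apoe are shown because these genes span the members' range of differences, from the largest (Apoa1) to the smallest (Apoe). Capitals mark AANGTCCA, part of the site described for HNF4 factors, read here on the other strand as TGGACCTT, and the TATA box TATAAA. Apoe has 3 listed starts, of which 1 is shown.
Apob, chr12:7977427-7977726, plus strand: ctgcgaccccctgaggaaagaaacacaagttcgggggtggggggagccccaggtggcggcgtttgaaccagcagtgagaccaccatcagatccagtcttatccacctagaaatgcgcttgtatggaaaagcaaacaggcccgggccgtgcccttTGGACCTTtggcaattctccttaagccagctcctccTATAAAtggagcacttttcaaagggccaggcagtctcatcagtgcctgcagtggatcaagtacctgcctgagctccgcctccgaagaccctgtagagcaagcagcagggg
Apoa4, chr9:46240594-46240893, plus strand: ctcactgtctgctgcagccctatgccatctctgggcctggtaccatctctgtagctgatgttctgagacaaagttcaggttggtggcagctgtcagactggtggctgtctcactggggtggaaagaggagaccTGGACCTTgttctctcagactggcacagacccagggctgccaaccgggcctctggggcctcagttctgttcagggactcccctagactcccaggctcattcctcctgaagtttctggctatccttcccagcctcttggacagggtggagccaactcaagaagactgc
Apoa1, chr9:46228380-46228679, plus strand: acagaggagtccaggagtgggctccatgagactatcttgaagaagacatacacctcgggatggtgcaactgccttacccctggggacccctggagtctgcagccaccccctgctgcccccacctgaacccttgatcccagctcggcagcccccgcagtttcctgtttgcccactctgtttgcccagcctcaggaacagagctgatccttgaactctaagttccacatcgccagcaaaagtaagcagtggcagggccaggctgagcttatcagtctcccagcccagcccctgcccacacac
Apoe, chr7:19699139-19699438, minus strand: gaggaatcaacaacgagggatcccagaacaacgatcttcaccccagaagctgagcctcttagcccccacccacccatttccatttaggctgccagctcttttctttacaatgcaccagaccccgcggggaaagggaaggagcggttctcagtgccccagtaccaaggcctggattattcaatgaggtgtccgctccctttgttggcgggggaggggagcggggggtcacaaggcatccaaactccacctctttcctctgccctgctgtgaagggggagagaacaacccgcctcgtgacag

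Searched on both strands, AANGTCCA lay in promoters of Apob, Apoa4 and Apoa2, 3 of 12 listed member promoters, and in 3.178% of all 32851 promoters. The nuclear receptor half-site AGGTCA lay in promoters of Apoa2 and Apoh, and in 16.26% of all promoters. TATAAA lay in 5 member promoters, those of Apoa2, Apoa5, Apob and Apoe, and in 13.62% of all promoters. A match is a string of letters in this window and not a measured binding site. Apoa1 and Apob, with the 2 largest differences, had 0 and 2 of the marked matches in the promoters printed above.

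The particle builders come first. Apob, the scaffold protein of very low density lipoprotein and chylomicrons, stood at −4.34, −1.65, −2.73 and −1.39 on cΔex3-labelled arrays 1 to 4 and at 7.21, 7.72 and 7.06 on control-labelled arrays 1 to 3. Every cΔex3-labelled array lay below every control-labelled array, by at least 8.46 on the log2 scale. The means were −2.53 ± 1.34 (SD, n = 4) on the cΔex3-labelled and 7.33 ± 0.35 (SD, n = 3) on the control-labelled arrays, a log2 difference of −9.86 ± 0.70 (SE) or 931-fold, and −9.26 without cΔex3-labelled array 1. Ranked by mean among all genes tested, Apob was number 12919 on the cΔex3-labelled arrays and number 317 on the control-labelled arrays.

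Mttp, the lipid loader, read −2.35, −2.37, −3.02 and −0.59 on the cΔex3-labelled arrays and 4.00, 4.14 and 3.89 on the control-labelled arrays. It was dimmer than Apob in the control group and tightly grouped there, with means of −2.08 ± 1.05 (SD, n = 4) on cΔex3-labelled and 4.01 ± 0.13 (SD, n = 3) on control-labelled arrays. Its log2 difference was −6.09 ± 0.54 (SE), or 68.2-fold, the smallest of the 8 members other than Apoe and Apoc1. Levels of different probes are not compared as amounts of RNA, since a probe's brightness also depends on its sequence.

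Among the apolipoproteins of high density lipoprotein, Apoa1, its main protein and the activator of lecithin cholesterol acyltransferase, differed most of all members. Apoa1 stood at −5.64, −2.56, −3.91 and −3.44 on the cΔex3-labelled arrays and at 6.07, 7.31 and 6.63 on the control-labelled arrays. The groups did not overlap, and array 1 of the cΔex3 group and array 1 of the control group were the lowest of their groups. The means were −3.89 ± 1.30 (SD, n = 4) on the cΔex3-labelled and 6.67 ± 0.62 (SD, n = 3) on the control-labelled arrays, and the log2 difference was −10.56 ± 0.71 (SE), or 1512-fold. In processed signal this was 37.1 to 228 units on the cΔex3-labelled and 51379 to 120336 units on the control-labelled arrays. The low readings were still marked as well above background, as were all 70 readings of the 10 members on the 7 arrays.

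Apoa2, the second protein of high density lipoprotein, had levels of 2.47, 3.54, 3.16 and 3.71 on the cΔex3-labelled arrays and 9.62, 9.63 and 9.35 on the control-labelled arrays. It held rank 2473 by mean among all genes on the cΔex3-labelled arrays and rank 9 on the control-labelled arrays. The log2 difference was −6.31 ± 0.31 (SE), or 79.4-fold. Its other probe gave −1.32, 1.96, 1.35 and 2.29 on the cΔex3-labelled and 9.64, 9.41 and 9.14 on the control-labelled arrays, a larger log2 difference of −8.32, with the groups as clearly apart.

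Apoa4, a chylomicron and high density lipoprotein protein made in gut and, in mouse, also in liver, varied most of all members on the control-labelled arrays. It read −5.47, −4.24, −5.32 and −5.65 on the cΔex3-labelled arrays, against 1.46, 0.54 and 4.20 on the control-labelled arrays. Control-labelled array 3 stood well above the other 2 of its group, at 16686 units of processed signal against 2093 and 1102. The groups were still separate, with a log2 difference of −7.24 ± 0.85 (SE), or 151-fold. Without control-labelled array 3 the difference was −6.17, and without control-labelled array 2 it was −8.00. The cΔex3-labelled readings were low, at 41.7 to 71.3 units of processed signal, and the size of the difference varied with the processing. It was −5.96 with normexp correction, −5.62 with the authors' deposited values and −9.27 in the lower slide row, which leaves 1 control-labelled array. Of 8 enterocyte markers tested, 5 were called lower on the cΔex3-labelled arrays and 0 higher, with a median log2 difference of −1.32. Fabp2, the intestinal fatty acid binding protein, averaged −3.12 on the cΔex3-labelled and 5.98 on the control-labelled arrays, and Anpep averaged 3.56 on the cΔex3-labelled and 5.64 on the control-labelled arrays. Treh, trehalase, was not well above background on any cΔex3-labelled array, where its measured mean was −8.27, and averaged 0.14 on the control-labelled arrays. On the control-labelled arrays, Fabp2 and Treh were highest on array 3, like Apoa4, at 98446 and 2185 units of processed signal. Vil1 and Alpi were also highest there, while Anpep was highest on array 2 and Sis, Lct and Cdx1 on array 1. Vil1 differed by 2.04 and did not pass, and Sis differed by −1.23 and was called lower. The part of the cells behind these markers in the Apoa4 level was not tested. Lct, Alpi and Cdx1, markers of the gut epithelium, had low mean levels of −4.32, −5.62 and −5.50 on the cΔex3-labelled and −5.53, −6.05 and −4.08 on the control-labelled arrays.

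Apoa5, which promotes the breakdown of triglyceride by lipoprotein lipase, read −3.68, −3.60, −3.34 and −2.98 on the cΔex3-labelled arrays and 3.67, 4.71 and 4.52 on the control-labelled arrays. It varied least of all members on the cΔex3-labelled arrays, with an SD of 0.32 there (n = 4) and 0.56 on the control-labelled arrays (n = 3). Its log2 difference was −7.70 ± 0.31 (SE), or 208-fold.

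Apoc3, an inhibitor of lipoprotein lipase and of particle uptake, had 0.02, 1.63, 0.35 and 0.98 on the cΔex3-labelled arrays and 9.07, 9.18 and 8.91 on the control-labelled arrays. The control-labelled arrays lay close together, and Apoc3 ranked 7041 among all genes on the cΔex3-labelled and 40 on the control-labelled arrays. The log2 difference was −8.30 ± 0.39 (SE), or 316-fold. A probe for another Apoc3 transcript was much dimmer and read −2.33, −1.998, −2.16 and −2.11 on the cΔex3-labelled and 0.70, 0.69 and 0.49 on the control-labelled arrays, a log2 difference of −2.77. The size of the Apoc3 difference therefore differed between its probes, while the direction did not.

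Apoh, a phospholipid-binding plasma protein also called β2-glycoprotein I, had −3.08, −0.03, −0.87 and 0.38 on the cΔex3-labelled arrays and 8.75, 8.90 and 8.46 on the control-labelled arrays. Its range of 3.45 on the cΔex3-labelled arrays was the widest of any member there, and array 1 was the low one. The log2 difference was −9.60 ± 0.79 (SE), or 778-fold, and −8.88 without cΔex3-labelled array 1.

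Apoe and Apoc1 form a pair apart from the other 8. Apoe, the ligand by which remnant particles are cleared, stood at 7.59, 8.12, 7.78 and 6.87 on the cΔex3-labelled arrays and at 9.61, 9.69 and 9.40 on the control-labelled arrays. It ranked 62 among all genes on the cΔex3-labelled arrays and 7 on the control-labelled arrays. The groups were separated by 1.28 on the log2 scale at their nearest arrays, and the log2 difference was −1.98 ± 0.30 (SE), or 3.94-fold. In processed signal, Apoe had 358489, 375965, 364968 and 252262 units on the cΔex3-labelled arrays and 598208, 624635 and 613192 units on the control-labelled arrays. The control-labelled readings lay 0.14 to 0.23 below the brightest spot of their array on the log2 scale, and the cΔex3-labelled readings 0.59 to 1.62 below it. On the control-labelled arrays, Apoa2 lay 0.14 to 0.30 below the brightest spot, Apoc1 0.46 to 0.54 and Apoc3 0.64 to 0.75. Whether the top of the scanner's range narrows the differences of Apoe and these genes was not tested. Without scaling between arrays the Apoe difference was −0.87, and with the authors' deposited values −0.66, so that its size depends on the scaling.

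Apoc1, a small inhibitor of lipoprotein lipase and of receptor uptake, had 5.92, 6.50, 6.50 and 4.91 on the cΔex3-labelled arrays and 9.25, 9.38 and 9.08 on the control-labelled arrays. It ranked 355 on the cΔex3-labelled and 23 on the control-labelled arrays. The nearest arrays of the groups were 2.58 apart, and the log2 difference was −3.28 ± 0.40 (SE), or 9.72-fold. It was −2.18 with quantile scaling or without scaling, and −2.17 with the authors' deposited values.

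**Figure D1:**
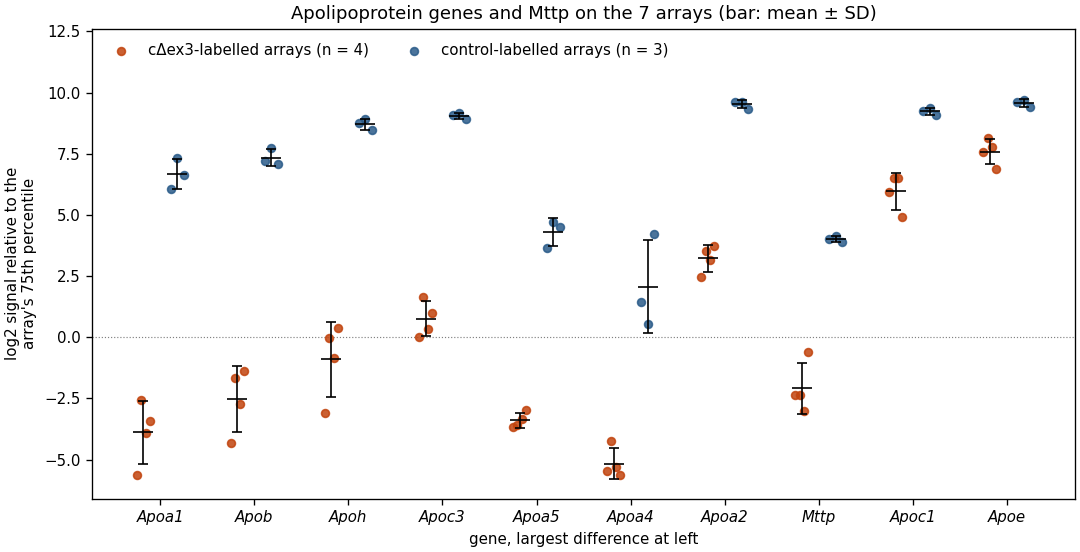
Level of each gene on each array, as log2 processed signal relative to the array's 75th percentile (vertical axis), by gene (horizontal axis), with cΔex3-labelled arrays at left and control-labelled arrays at right of each pair and the mean ± SD as bars. Apoe and Apoc1 at the right stay above 4.9 in both groups, while Apoa1, Apob and Apoh at the left have differences of −10.56 to −9.60.

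Seen together, the 10 members had a median log2 difference of −7.47, with a range from −10.56 to −1.98, while the median over all 18019 genes was −0.08. The fit over all genes called all 10 lower, and 29.0% of all genes tested were called lower, 24.1% higher and 53.1% in either direction. Of the genes called, 54.7% were lower, and 13.7% without scaling between arrays. The 2 groups did not overlap for 10 of 10 members, and 32.6% of all genes were lower without overlap. A difference of −5 or below was seen in 8 of 10 members and in 2.62% of all genes. The members were chosen with this contrast known, so the counts describe them and test nothing. The 8 members other than Apoe and Apoc1 had a median of −8.00, and all 8 lay inside the range of the 13 hepatocyte markers, −10.82 to −5.84, whose median was −9.11. Apoe and Apoc1 lay outside that range.

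The members also varied within each group. On the cΔex3-labelled arrays, array 1 was the lowest for Apoa1, Apoa2, Apoa5, Apob, Apoc3 and Apoh, and array 4 was the highest for Apoa2, Apoa5, Apob, Apoh and Mttp. For Apoa4, Apoc1 and Apoe, array 4 was the lowest. The hepatocyte markers had medians of −2.90, −0.03, −0.71 and 0.11 on cΔex3-labelled arrays 1 to 4, with array 1 lowest and array 4 highest, and 8.47, 8.64 and 8.25 on the control-labelled arrays. The adipocyte markers had medians of 7.60, 7.98, 7.94 and 6.56 on the cΔex3-labelled arrays, with array 4 lowest, and −3.06, −1.94 and −3.22 on the control-labelled arrays. The macrophage markers were likewise lowest on cΔex3-labelled array 4, with medians of 2.98, 3.36, 3.12 and 1.85 on the cΔex3-labelled and 2.66, 2.38 and 3.01 on the control-labelled arrays. Of the 9 macrophage markers, Lyz2 alone was called, as higher on the cΔex3-labelled arrays. Summed macrophage signal was 127271 to 226866 units on the cΔex3-labelled and 72362 to 115558 units on the control-labelled arrays, and 58.9 to 145 on the cΔex3-labelled and 95.7 to 127 on the control-labelled arrays when divided by the array's 75th percentile, so that the groups overlapped. All 5 Kupffer cell markers were called lower on the cΔex3-labelled arrays, with a median of −4.91. The medians of the Kupffer cell (−1.31), fibroblast (4.28) and endothelium (0.40) markers were also lowest on cΔex3-labelled array 4. Like the hepatocyte markers, the enterocyte (−4.02) and keratinocyte (−0.05) markers had their highest cΔex3-labelled median on array 4. The keratinocyte medians on arrays 1 to 3 were −3.75, −2.66 and −2.06. Summed keratinocyte signal was 16522 units on array 4 and 1155 to 1725 units on arrays 1 to 3. The dermal sheath medians were 4.25, 3.18, 2.20 and 4.12 on arrays 1 to 4. The part of these cells in the members' levels was not tested. On the control-labelled arrays, array 2 was the highest for 9 members and array 3 the highest for Apoa4. The range over the arrays of a group was wider on the cΔex3-labelled than on the control-labelled arrays for 8 members, the exceptions being Apoa4 and Apoa5.

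**Figure D2:**
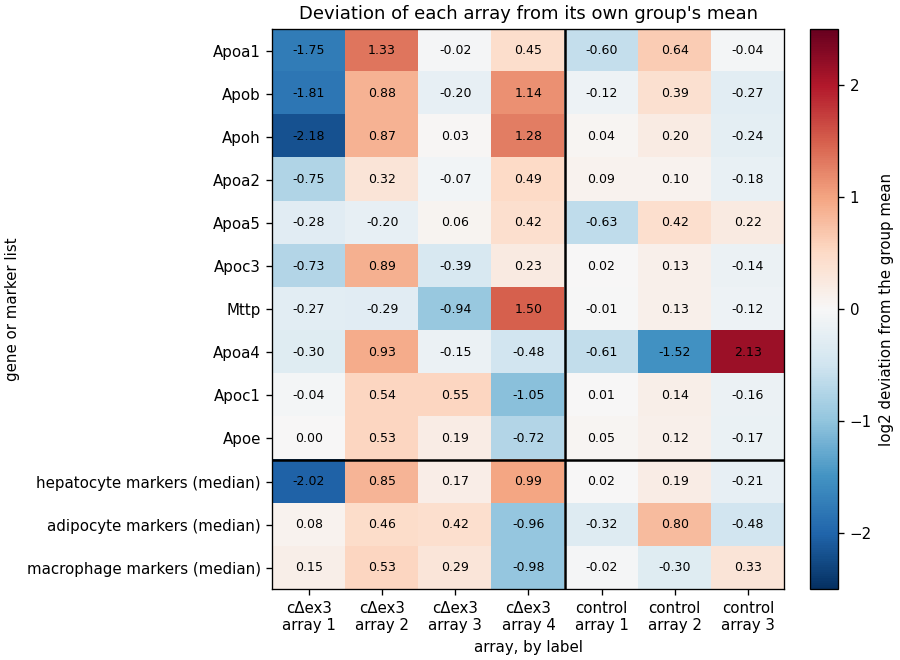
Difference of each array from the mean of its own group (colour and printed value, log2 units), by gene or marker list (rows) and array (columns), with the cΔex3-labelled arrays left of the line. On cΔex3-labelled array 1 Apoa1, Apob and Apoh are 1.75 to 2.18 below their group mean, and on array 4 Apoc1 and Apoe are 1.05 and 0.72 below it.

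The genes most like each member over the 7 arrays were found by Pearson correlation of log2 levels, a measure that the difference between the groups dominates. Pearson r takes no account of the size of a difference. Among the genes nearest to Apoa1 (−10.56), Agxt differed by −10.03 and Lman1l by −1.27. Among those nearest to Apoc1 (−3.28), Abat differed by −3.15 and C87436 by −0.46. Nearest to Apob were Rdh7 (r = 0.9997), Azgp1 (r = 0.9996) and C8b (r = 0.9995), and 274 genes had r above 0.99 with it. Nearest to Apoa1 were Agxt, Hamp and Lman1l, and nearest to Apoh were Mug1, Plg and Kng1, plasma proteins made by liver. Apoe was most like Mtarc2 (r = 0.9984), Lypla2 (r = 0.9984) and Stbd1 (r = 0.9983), and 98 genes exceeded 0.99. Apoc1 was most like 1810034E14Rik, C87436 and Abat, and Mttp most like Lsr, Cyp4f15 and Gramd1c. Apoa2 lay nearest to Asgr1, Cyp2d10 and Serpina3k, Apoc3 to Cyp2d26, Hc and Muc5ac, and Apoa5 to Gpr45 and Nectin1 among others. Apoa4 had few near matches, with 3 genes above 0.99, namely Zfp661, Aldh3a2 and 4930525G20Rik.

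Beyond the members, 89 other lipoprotein genes were tested in 5 lists by role. Of the 89, 16 were called higher and 51 lower by limma with Benjamini-Hochberg adjustment over all genes, 22 passed in neither direction, and the median log2 difference was −1.34. The shares over all genes tested were 24.1% higher and 29.0% lower. These lists, too, were written with earlier results of these data known.

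Of the 14 other plasma and high density lipoprotein genes, 10 were called lower, 1 higher and 3 neither, with a median of −7.74. Pon1, the paraoxonase carried on high density lipoprotein, averaged −1.77 ± 0.60 (SD, n = 4) on the cΔex3-labelled and 7.40 ± 0.29 (SD, n = 3) on the control-labelled arrays, a limma log2 difference of −9.16 ± 0.35 (SE, adjusted p = 9.22e-06). Apom, which carries sphingosine 1-phosphate on high density lipoprotein, was lower by a like amount, at −3.44 ± 0.63 on the cΔex3-labelled and 6.24 ± 0.53 on the control-labelled arrays (difference −9.69 ± 0.41, limma adjusted p = 1.06e-05). Apon and Saa4, the constitutive serum amyloid A, differed by −9.65 and −9.35. Apoc2, the activator of lipoprotein lipase, averaged 1.00 ± 0.67 on the cΔex3-labelled and 7.41 ± 0.30 on the control-labelled arrays, a difference of −6.42 ± 0.38 (limma adjusted p = 3.35e-05). Apod, a lipocalin made in many tissues, was the one called higher, at 4.51 ± 1.02 on the cΔex3-labelled and −1.64 ± 0.20 on the control-labelled arrays (difference 6.15 ± 0.54, limma adjusted p = 0.000153), and was singled out after its values were seen. Saa3 (0.84), Pon2 (0.07) and Pon3 (−0.23), likewise picked out afterwards, did not pass.

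Of 23 genes of Apob particle assembly and secretion, 16 were called lower, 2 higher and 5 neither, with a median of −1.74. Smlr1, a small membrane protein needed in mouse liver for secretion of these particles, differed by −9.82 ± 0.54 (SE, limma adjusted p = 2.54e-05), with 3 of 4 cΔex3-labelled readings well above background, and Pla2g12b, which in mouse helps load the particles with lipid, by −7.49 ± 0.60 (adjusted p = 0.000106). Soat2, which makes cholesteryl ester for the particle core, differed by −5.52. P4hb, protein disulfide isomerase and the small subunit of the Mttp complex, averaged 3.42 ± 0.29 (SD, n = 4) on the cΔex3-labelled and 5.24 ± 0.17 (SD, n = 3) on the control-labelled arrays, a difference of −1.82 ± 0.21 (SE, limma adjusted p = 0.000514), against −6.09 for Mttp itself. Mia2, a cargo receptor for large particles, differed by −2.35. Sort1, a sorting receptor that binds Apob, was called higher, at 4.58 ± 0.62 on the cΔex3-labelled and 0.28 ± 0.43 on the control-labelled arrays (difference 4.30 ± 0.38, limma adjusted p = 0.000162). The other one called higher was Dgat1, a triglyceride-synthesising enzyme, by 1.98, named after its value was seen. Apobec1, the enzyme that edits Apob mRNA, averaged 2.74 ± 0.66 on the cΔex3-labelled and 3.02 ± 0.44 on the control-labelled arrays, a difference of −0.29 ± 0.40 that did not pass (limma adjusted p = 0.566) and changed sign in 6 of 19 other settings.

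Of 14 lipase, transfer and efflux genes, 6 were called lower, 4 higher and 4 neither, with a median of −0.43. Lcat, the plasma enzyme that Apoa1 activates, averaged −4.59 ± 0.22 (SD, n = 4) on the cΔex3-labelled and 4.00 ± 0.33 (SD, n = 3) on the control-labelled arrays, a difference of −8.59 ± 0.22 (SE, limma adjusted p = 7.37e-06). Lipc, hepatic lipase, differed by −6.93 ± 1.27 (limma adjusted p = 0.00371), and 2 of its 4 cΔex3-labelled readings exceeded background. The Lipc difference was −4.65 with normexp correction, −4.49 with the authors' deposited values, and −7.80, −6.26 or −6.18 without cΔex3-labelled array 1, 2 or 3. Angptl8, a secreted inhibitor of lipoprotein lipase, differed by −3.76, and Lmf1, a maturation factor of lipases, by −1.87. Lpl, lipoprotein lipase, which adipocytes make in quantity, went the other way, with 7.30 ± 0.72 on the cΔex3-labelled and 2.19 ± 0.84 on the control-labelled arrays (difference 5.12 ± 0.52, limma adjusted p = 0.000283). Pltp, the phospholipid transfer protein, was higher by 2.21 ± 0.49 (limma adjusted p = 0.00786). Abca1, the exporter that hands cholesterol to Apoa1, stood at 3.22 ± 0.52 on the cΔex3-labelled and 3.40 ± 0.12 on the control-labelled arrays, a difference of −0.17 ± 0.30 that did not pass (limma adjusted p = 0.647) and whose sign changed with the scaling.

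Of 17 receptor and uptake genes, 8 were called higher, 6 lower and 3 neither, and the median of 0.62 was the only one of the 5 lists above 0. Lsr, a receptor for triglyceride-rich particles, averaged 3.49 ± 0.61 (SD, n = 4) on the cΔex3-labelled and 6.69 ± 0.16 (SD, n = 3) on the control-labelled arrays, a difference of −3.20 ± 0.34 (SE, limma adjusted p = 0.000361). Sdc1, a heparan sulfate proteoglycan that binds remnants, differed by −2.67. Sorl1, a sorting receptor that binds Apoe, was higher by 2.30. Scarb1, the high density lipoprotein receptor, differed by −1.32 ± 0.40 (limma adjusted p = 0.0279), a call lost in 10 of 19 other settings, among them leaving out control-labelled array 1 (−1.46), 2 (−1.1) or 3 (−1.39) or cΔex3-labelled array 1 (−1.29). The Scarb1 difference shrank to −0.71 with quantile scaling, −0.67 with the authors' deposited values and −0.21 without scaling. Vldlr (3.99) and Lrp2 (6.20), receptors that bind Apoe, and Cd36 (3.42), a fatty acid and lipoprotein receptor, were called higher and were picked out after their values were seen. Lrp2 was well above background on 2 of 3 control-labelled arrays. Of other receptors in the list, also named afterwards, Lrp1 (−0.64) did not pass. Lrp8 (3.54) was called higher, with 0 of 3 control-labelled readings well above background.

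Of 21 transcription factors of apolipoprotein genes, 13 were called lower, 1 higher and 7 neither, with a median of −1.44. Foxa2, a liver and gut pioneer factor, differed by −9.26 ± 0.39 (SE, limma adjusted p = 1.06e-05), Creb3l3, a liver and gut activator of Apoa4 and Apoc2 in mouse, by −9.23 ± 0.42 (adjusted p = 1.31e-05), and the bile acid receptor Nr1h4 by −6.86 ± 0.24 (adjusted p = 8.73e-06). Ppara and Nr0b2 differed by −5.47 and −5.82. Of the 4 cΔex3-labelled readings, 3 of Foxa2 and 2 of Nr0b2 were well above background. Hnf4a, the nuclear receptor that drives many of the member genes in liver, read 2.44, 2.58, −2.24 and −0.53 on cΔex3-labelled arrays 1 to 4 and 7.92, 7.91 and 7.52 on control-labelled arrays 1 to 3, a difference of −7.22 ± 1.19 (SE, limma adjusted p = 0.00234). Without cΔex3-labelled array 1, 2 or 3 it was −7.85, −7.89 or −6.29. Among the cΔex3-labelled arrays Hnf4a was thus higher on arrays 1 and 2 than on arrays 3 and 4. Of the members, Apoa1, Apoa2, Apoa5, Apob, Apoc3 and Apoh were lowest on array 1, Mttp on array 3, and Apoa4, Apoc1 and Apoe on array 4. Apoa1, Apoa4, Apoc3 and Apoe were highest on array 2. The part of Hnf4a in the members' levels was not tested. The one factor called higher was Nr2f1, a repressor of several of these promoters, by 2.23, likewise named after its value was seen.

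**Figure D3:**
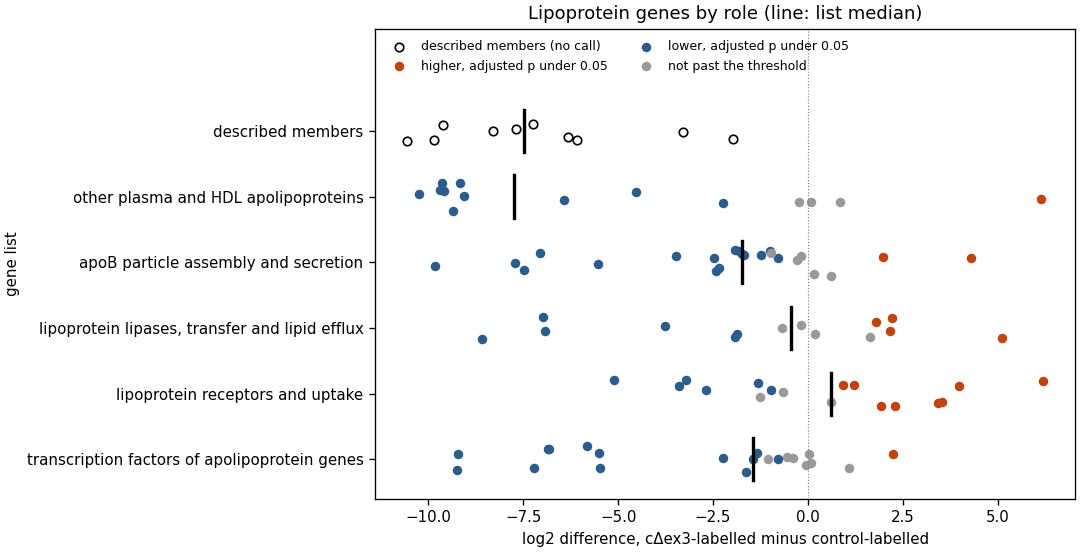
Log2 difference, cΔex3-labelled minus control-labelled (horizontal axis), of each gene by role (rows), coloured by its limma call over all genes, with the list median as a bar. The medians are −7.47 for the members and −7.74, −1.74, −0.43, 0.62 and −1.44 for the 5 other lists from top to bottom.

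6 of the members lie in 2 gene clusters of the mouse genome, Apoc1 and Apoe on chromosome 7, and Apoa1, Apoc3, Apoa4 and Apoa5 on chromosome 9. Of the 20 nearest neighbours, 5 on each side of each cluster, 17 were tested, with 4 called higher, 9 lower and 4 neither by limma and a median log2 difference of −0.63. The 9 called lower include Apoc2 and Apoc4, themselves apolipoprotein genes. Of all genes tested, 24.1% were called higher and 29.0% lower, with a median of −0.08. On chromosome 9 the genes at the cluster's edge differed far less than the members. Sik3, the gene before Apoa1, differed by −0.71 (limma adjusted p = 0.0584) and Zpr1, the gene after Apoa5, by −0.56 (limma adjusted p = 0.0613), neither past the threshold, while the 4 members between them differed by −7.24 to −10.56. Averaging a gene's probes gave −1.17 for Sik3 (limma adjusted p = 0.00746) and −0.78 for Zpr1 (limma adjusted p = 0.0214), both then called lower. Sik3 was also called without cΔex3-labelled array 1 (−0.84) or 4 (−0.50), and Zpr1 without cΔex3-labelled array 2 (−0.68) or with arrays of 1 mouse (−0.87). Farther out, Pcsk7 (−0.66), Sidt2 (−0.63) and Cadm1 (−2.53) were called lower, Tagln (1.01), a smooth muscle gene and dermal sheath marker, and Pafah1b2 (0.57) higher, and Bud13 (0.25) did not pass. Sidt2 and Pafah1b2 lost their calls without any one of control-labelled arrays 1 to 3 or cΔex3-labelled arrays 1 to 3 (−0.68 to −0.55 and 0.49 to 0.65), and Tagln without control-labelled array 1 (0.93) or 3 (0.96).

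The chromosome 7 cluster looked different. Apoc4 and Apoc2, apolipoprotein genes next to Apoc1, differed by −9.07 ± 0.78 (SE, limma adjusted p = 0.000142) and −6.42, more than Apoc1 (−3.28) and Apoe (−1.98). Apoc4 was far lower on cΔex3-labelled array 1 than on the other 3 of its group, and its difference was −8.31 without that array. Tomm40, on the other side of Apoe, differed by −0.59 (limma adjusted p = 0.0299) and lost its call without control-labelled array 1 (−0.56) or 2 (−0.56) or cΔex3-labelled array 1 (−0.50) or 3 (−0.62). The Tomm40 difference was −0.039 with quantile scaling and −0.058 with the authors' deposited values. Nectin2 (−0.53) did not pass, Clptm1 (−0.73), Cblc (−4.56) and Bcl3 (−2.79) were called lower, and Bcam (3.26) and Relb (2.00) higher. The Cblc difference was −3.69 without cΔex3-labelled array 3 and −5.26 without array 4. The direction of Clptm1, Tomm40, Nectin2, Pcsk7, Sidt2, Sik3 and Zpr1 turned positive without scaling between arrays, which moved the median of all genes by 1.1.

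**Figure D4:**
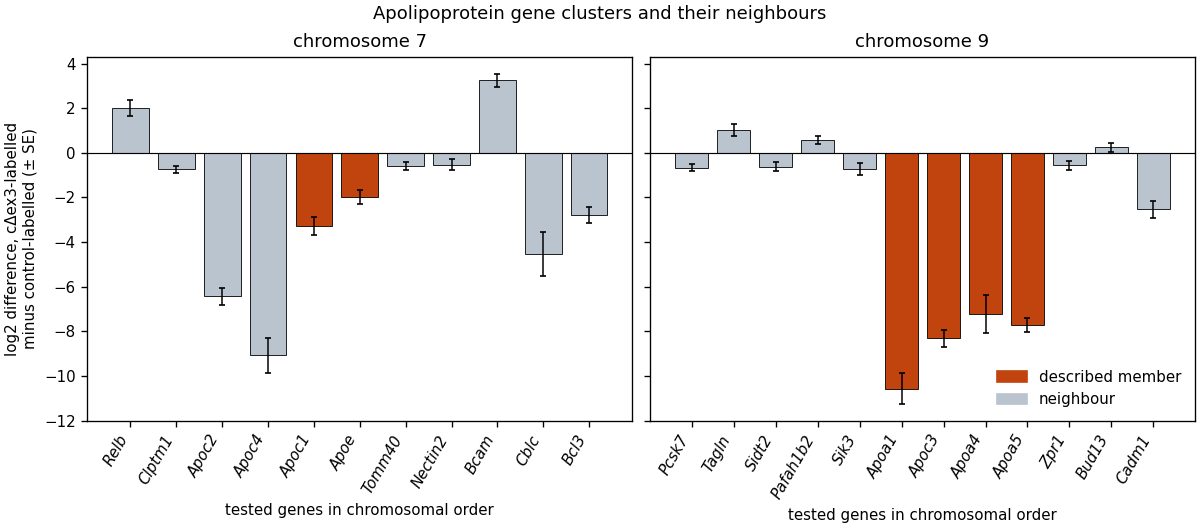
Log2 difference ± SE, cΔex3-labelled minus control-labelled (vertical axis), of the tested genes in chromosomal order (horizontal axis) around the clusters on chromosome 7 (left) and chromosome 9 (right), with the members coloured. The 4 members on chromosome 9 lie between −10.56 and −7.24, whereas Sik3 and Zpr1 on either side lie at −0.71 and −0.56.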

How the data were processed

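RNA of sorted mouse skin cells was measured on 7 arrays, 4 labelled cΔex3 and 3 labelled control, grouped by the sample titles. Per the file headers, the scans were processed in Agilent Feature Extraction 10.7.1.1. The deposited processed signal is a background-subtracted intensity on a linear scale, not normalised between arrays. Precision is limited by the small number of arrays. Other deposited values were 0 or 1 marks of saturated spots, outlier spots and spots well above background. In addition, the authors deposited a log2 table for the series, whose making is not given in the sources used here, and it served as an alternative. Headers and file names disagreed on the slide number for 7 of 7 arrays and on the position on the slide for 4.

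Levels were log2 processed signal minus the 75th percentile of the array. Outlier and control spots were dropped and a probe's spots averaged, leaving 55681 probes. Probes were named by RefSeq accession on GRCm38.p6 (28026 named, 27655 unnamed). The array's annotation uses another build, so array coordinates are not given. Probes entered the test if 3 or more of the 7 arrays read them well above background, and the brightest probe stood for a gene. Groups were compared with limma 3.58.1 in R 4.3.3 (two-sided, adjusted p threshold 0.05, Benjamini-Hochberg over 18019 genes), a step tested on simulated data. In the simulation far fewer genes changed than were called here and errors were independent. It therefore checks the code and not the calls made on these data.

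The members and all gene lists were chosen with earlier results of these data known, so members carry no test. Genes named outside the members were 10 fixed pathway genes, up to 5 genes of each list with the smallest p, all tested cluster neighbours, and the 3 genes most correlated with each member. Others are named as chosen afterwards. Some genes that this rule names are not reported here. Alternatives covered scaling, background correction (normexp with offset 50, on median spot intensity because mean intensity was not used here), the filter, probe choice, replicates left out, the replicate block, arrays of 1 mouse and slide row. Values without scaling between arrays were added after seeing the data.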

Additional observations from a re-analysis of the deposited data

Results flagged for a closer look

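Among 58 members, pathway genes and neighbours examined, 3 had a sample far from the other 3 of the cΔex3 group, measured as the gap to the nearest array over the whole range (Dixon's test, which flags about 5% of groups by chance). Apoc4 on cΔex3-labelled array 1 read −4.20, with the other 3 arrays between −1.40 and −0.996. Bcl3 on cΔex3-labelled array 4 read 0.81, with the others between 1.89 and 1.91. Cadm1 on cΔex3-labelled array 3 read −2.23, with the others between −1.01 and −0.79. None of the 10 members was among these 3.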

How the results depend on the processing

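All 10 members kept their direction in the 19 other settings run, while the size of their differences varied. Over these settings Apoa1 ran from −12.34 to −9.03, Apob from −11.81 to −8.76 and Apoc3 from −9.10 to −5.54. The members' median difference, −7.47, was −7.78 to −7.00 with single arrays left out and −6.13 with the deposited log2 values. Without scaling between arrays the median of all genes moved by 1.1, 10084 genes were called higher and 1604 lower (main values 4334 and 5234), and the share of calls that were lower was 13.7% against 54.7% with scaling. Quantile scaling moved that median by 0.21 and gave 45.5% lower calls, the deposited values 0.19 and 45.9%, normexp correction −0.11 and 63.3%. Without scaling, 29 pathway genes were called higher (main 16), and 7 neighbours higher and 5 lower (main 4 and 9). With the lower slide row alone, which leaves 1 control-labelled array assumed to vary like the rest (the upper row likewise holds 1 cΔex3-labelled array), 525 genes were called higher and 714 lower, 0 pathway genes higher and 21 lower (main 51), and 0 neighbours higher and 2 lower. By the slide positions in the file names, each row holds 1 group only, and row and group then cannot be told apart. Arrays of 1 mouse gave 10 pathway genes higher. With single arrays left out, all genes called ranged over 3244 to 4922 higher and 3994 to 5565 lower, pathway genes over 13 to 20 and 45 to 52, and neighbours higher over 2 to 4, with 2 without control-labelled array 1 or 3.

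The sign of Apobec1 turned with quantile scaling (0.083), deposited values (0.15), without cΔex3 replicate 4 (0.035; −0.45 to 0.035 over all arrays left out singly), with the replicate block (0.035), in the upper slide row (0.22) and without scaling (0.82). That of Abca1 turned with quantile scaling (0.29), deposited values (0.19), without cΔex3 replicate 2 (0.012, range −0.36 to 0.012), with slide row as a block (0.029), in the upper row (0.34) and without scaling (0.93). Sidt2 turned with quantile scaling (0.024), deposited values (0.0033) and without scaling (0.48). Without scaling alone Clptm1 (0.37), Tomm40 (0.51), Nectin2 (0.58), Pcsk7 (0.44), Sik3 (0.39) and Zpr1 (0.54) turned. The cause of these changes was not tested. Of 48 named pathway and neighbour genes, 17 kept call and direction in all settings 25 lost the call in some and 4 gained one in some.

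Replicate numbers did not pair the samples: same-numbered arrays' deviations correlated at −0.0093, −0.00036 and 0.018. With the replicate block, 4493 genes were called higher and 4977 lower, 20 and 51 pathway genes, 4 and 8 neighbours, and the members' median was −7.46.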
